A study of Homo sapiens with 6 samples.

Results

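The miR-181 family was followed in small RNA libraries of A549 cells, a human lung adenocarcinoma line, in which METTL1, the RNA methyltransferase that makes N7-methylguanosine (m7G), had been depleted. Members were a set list matched by name: 7 of the 2588 mature miRNAs in the count tables, namely the 5p strands hsa-miR-181a-5p, hsa-miR-181b-5p, hsa-miR-181c-5p and hsa-miR-181d-5p and the 3p strands hsa-miR-181a-3p, hsa-miR-181a-2-3p and hsa-miR-181c-3p (the human prefix hsa is dropped below). The other 3 entries named miR-181 are not in the list, nor in counts of members, and are given separately. All libraries came from cells with a doxycycline-inducible METTL1 knockdown (an shRNA from a lentivirus), collected on day 5 of doxycycline at 200 ng/ml. Total RNA (the input) was sequenced in 3 libraries with 9155690 to 10753443 counts. RNA recovered with an anti-m7G antibody after heat denaturation (m7G-RIP) was sequenced in 3 libraries with 2649238 to 3106556 counts. Libraries of METTL1-proficient cells and of a control IgG were not analysed here, so every value below compares antibody-recovered RNA with input RNA within knockdown cells, and what METTL1 loss does is not addressed. How much RNA the antibody recovered is not known, and each ratio is therefore read against the rest of its own library. The labels do not say that replicates were separate cultures, and p-values then measure only the spread between these libraries, which may be technical. Nor do they say that total RNA and m7G-RIP libraries of the same number came from the same RNA, so a difference between groups may include one of preparation.

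The culture text of the m7G-RIP samples describes the medium of Caco-2, an intestinal line, while their titles and cell line labels give A549, and they were analysed as A549. All 5 miRNAs listed for A549 cells, miR-21-5p among them, had counts in every library, with a summed level of 634754 to 690819 CPM in total RNA and 125486 to 178063 CPM in m7G-RIP. Of 9 miRNAs listed for intestinal epithelium, 7 had counts in every m7G-RIP library, with a summed level of 3329 to 3685 CPM against 22231 to 22846 CPM in total RNA (counts scaled by TMM to a common library size, as for all levels here). Of the 8 that were tested, 5 were depleted and 1 was enriched in m7G-RIP, and miR-141-3p, with at most 6 counts in a total RNA library, was at 0. All 5 miRNAs listed for A549 were tested, and 4 were depleted and 0 enriched, so depletion was found in both lists. Of 7 blood cell miRNAs, 6 were at 0 in every m7G-RIP library, and the summed level of the list was at most 1.57 CPM. The part of the cell source in the results below was not tested.

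A miRNA is cut by DROSHA and DICER1 from a hairpin whose arms give a 5p and a 3p strand, and a strand loaded into an Argonaute protein finds its target mRNAs mainly through the seed, bases 2 to 8. Strands with the same seed are therefore grouped as a family. The miR-181 family is best known from blood cell development and the setting of T-cell receptor sensitivity, and has also been studied in epithelial tumours. In m7G the methyl group sits on a guanine, and the guanines of each strand are therefore given with it below.

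The 4 members of the 5p arm share the seed ACAUUCA and differ only in the bases after it, so they are shown together. Mature sequences were taken from RefSeq (GRCh38.p14) and are written 5′ to 3′ with the seed in capitals.
miR-181a-5p: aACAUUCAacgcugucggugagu
miR-181b-5p: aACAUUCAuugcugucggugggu
miR-181c-5p: aACAUUCAaccugucggugagu
miR-181d-5p: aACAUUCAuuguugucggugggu
Counted from 1 at the 5′ end, miR-181b-5p differs from miR-181a-5p by A9U, C10U and A21G. The change A21G gives miR-181b-5p a run of 3 G near its 3′ end, and brings its number of G from 6 to 7. The sequence of miR-181d-5p differs from that of miR-181b-5p by C12U alone and also has 7 G with the GGG run. With 22 bases and 5 G, miR-181c-5p equals miR-181a-5p with 1 base removed.

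The 3p strands of the family do not share the 5p seed, and they are shown because each comes from a single hairpin where the 5p strands of miR-181a and miR-181b do not.
miR-181a-3p: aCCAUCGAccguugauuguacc
miR-181a-2-3p: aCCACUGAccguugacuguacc
miR-181c-3p: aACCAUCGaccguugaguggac
The sequences of miR-181a-3p and miR-181a-2-3p differ by U5C, C6U and U16C, the first pair of changes inside the seed, and each holds 4 G with no GG. The seed of miR-181c-3p is that of miR-181a-3p shifted by 1 base. No run longer than 15 bases is shared by any of the 21 pairs of members, and alignments of at least 16 bases with up to 1 mismatch were accepted in the study, so an exact read of that length names a single member while a read with a mismatch need not.

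The hairpins lie in 3 clusters (GRCh38). On chromosome 1, minus strand, MIR181A1 (198859044 to 198859153) and MIR181B1 (198858873 to 198858982) lie 61 bases apart in introns of the long non-coding RNA gene MIR181A1HG. On chromosome 9, plus strand, MIR181A2 (124692442 to 124692551) and MIR181B2 (124693710 to 124693798) lie 1158 bases apart in introns of MIR181A2HG, and opposite to an intron of NR6A1. On chromosome 19, plus strand, MIR181C (13874699 to 13874808) and MIR181D (13874875 to 13875011) lie 66 bases apart in an intron of NANOS3. Reads of miR-181a-5p and of miR-181b-5p can come from chromosome 1 or 9 and cannot be assigned. How such reads were counted is not given. The levels, ranks and shares of these strands below, and their ratios to single-hairpin strands, depend on it. Among 3p strands, miR-181a-3p marks the copy on chromosome 1 and miR-181a-2-3p that on chromosome 9.

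In total RNA the members ranged from the well expressed miR-181a-5p (1476 ± 104 CPM, SD, n = 3; rank 44 of all miRNAs) and miR-181b-5p (1049.6 ± 45.1 CPM; rank 58) to miR-181c-5p (1.92 ± 1.17 CPM). Summed over the 7 members, the total RNA libraries held 3146 ± 184 CPM, against 785 ± 39.9 CPM for the m7G-RIP libraries. Of the 6 members that passed the expression filter, 5 were depleted in m7G-RIP (edgeR quasi-likelihood test, Benjamini-Hochberg adjusted p under 0.05), where 29.2% of the 620 tested miRNAs were depleted. None was enriched by edgeR at either the adjusted or the unadjusted threshold (0 members), nor by DESeq2 or limma-voom, where 23.5% of tested miRNAs were enriched by edgeR. These backgrounds depend on the scaling: with library size alone 141 of the 620 were depleted and 216 enriched, so that more were enriched than depleted. In all 6 tested members every m7G-RIP library lay below every total RNA library, as for 36.5% of tested miRNAs. The median log2 ratio (m7G-RIP over total RNA) of the 6 tested members was -1.67, against -0.074 over all tested miRNAs. The members spread widely, from -4.30 for miR-181a-3p to -0.55 for miR-181a-2-3p.

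**Figure D1:**
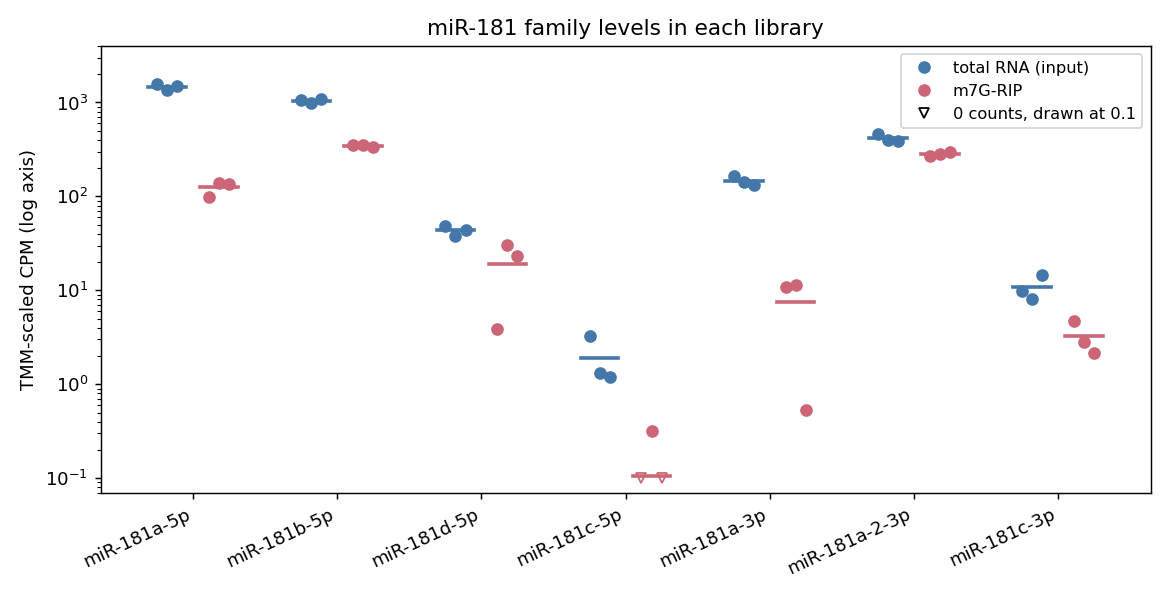
Level of each miR-181 member in every library (vertical axis, TMM-scaled CPM, log axis), with total RNA in blue, m7G-RIP in red and a line at each group mean; open triangles are libraries with 0 counts. Every m7G-RIP point lies below every total RNA point of the same member, with the gap wide for miR-181a-5p and narrow for miR-181a-2-3p and miR-181d-5p, while 1 m7G-RIP library stands low for miR-181d-5p (replicate 1) and 1 for miR-181a-3p (replicate 3).

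The most abundant member, miR-181a-5p, measured 1561, 1359 and 1508 CPM in replicates 1 to 3 of total RNA, against 99.6, 138 and 136 CPM in m7G-RIP. The groups lay far apart with little spread in either. Its mean fell 11.9-fold, to 124 ± 21.6 CPM (log2 ratio -3.57, SE 0.16, edgeR adjusted p = 3.25e-07), and its rank moved from 44 to 135. A lower log2 ratio was found for 7.58% of tested miRNAs.

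The seed-sharing miR-181b-5p measured 1066, 998 and 1084 CPM in total RNA, against 351, 354 and 333 CPM in m7G-RIP. Its replicates were the tightest of the family in m7G-RIP, and its mean fell 3.03-fold to 346 ± 11.4 CPM (log2 ratio -1.60, SE 0.11, edgeR adjusted p = 2.70e-06). In every total RNA library miR-181a-5p was the more abundant of the pair, and in every m7G-RIP library miR-181b-5p was.

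The chromosome 19 members had fewer counts. For miR-181d-5p the total RNA libraries held 430, 322 and 335 counts, and the m7G-RIP libraries 13, 96 and 87. Replicate 1 of m7G-RIP stood well below the other two. The total RNA mean was 43.6 ± 5.14 CPM and the m7G-RIP mean 19.1 ± 13.6 CPM. These means did not differ past the threshold (log2 ratio -1.19, SE 0.58, edgeR adjusted p = 0.109). Without that library the log2 ratio was smaller in size and passed (-0.92, edgeR adjusted p = 0.0202), and over all alternatives the adjusted p ranged from 0.000242 to 0.335.

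The remaining 5p member, miR-181c-5p, had 29, 11 and 9 counts in total RNA and 0, 1 and 0 counts in m7G-RIP, and it did not pass the expression filter. Over the pooled, scaled counts it was 20.3-fold lower in m7G-RIP, with an exact 95% interval of 3.48 to 819-fold that covers counting error only. Had it kept its total RNA proportion to miR-181a-5p, 1.71 counts would have been present in m7G-RIP, against 6.70 in proportion to miR-181b-5p and 8.84 in proportion to miR-181d-5p. The 1 count seen was thus close to the miR-181a-5p proportion. The place of this member among the others was not tested, since it did not pass the filter and the interval leaves out the spread between libraries.

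Because 5p members share a seed and differ in few bases, their counts were compared within each library, where scaling cancels. The ratio of miR-181a-5p to miR-181b-5p counts was 1.46, 1.36 and 1.39 in total RNA and 0.284, 0.389 and 0.408 in m7G-RIP. The groups did not overlap, and the order of the pair was turned over. The log2 ratio of miR-181a-5p was lower than that of miR-181b-5p by 1.98 (difference -1.98, SE 0.17, 95% interval -2.42 to -1.54, limma adjusted p = 0.000960 over 163 seed-sharing pairs), a 3.95-fold gap. Differences between seed-sharing miRNAs were common in these libraries: 50.9% of the 163 pairs differed by the same rule, the median size was 0.90, and 31 pairs differed by more than this one. Pairs that share a miRNA are not independent, and large families weigh most, with 11 tested miRNAs in the let-7 5p seed family. The pair of miR-181a-5p and miR-181b-5p was the 1 pair of the 3 tested 5p pairs that passed.

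Ratios with miR-181d-5p followed the low library. The ratio of miR-181a-5p to miR-181d-5p was 32.2, 35.5 and 34.2 in total RNA and 26.0, 4.57 and 5.84 in m7G-RIP, all below the total RNA libraries. The difference of log2 ratios, -1.96 (SE 0.69, 95% interval -3.72 to -0.20), was as large as that to miR-181b-5p but did not pass the test (limma adjusted p = 0.0634), and was -2.72 without m7G-RIP replicate 1 (adjusted p = 0.00140). For miR-181b-5p over miR-181d-5p, which differ at 1 base, the ratio was 21.97, 26.1 and 24.6 in total RNA and 91.7, 11.8 and 14.3 in m7G-RIP, which lay on both sides of total RNA. The difference was 0.022 (95% interval -2.10 to 2.15, limma adjusted p = 0.997), an interval too wide to tell whether the pair moved alike. Without m7G-RIP replicate 1 it was -0.90 (adjusted p = 0.0131), and its sign also turned in other settings.

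**Figure D2:**
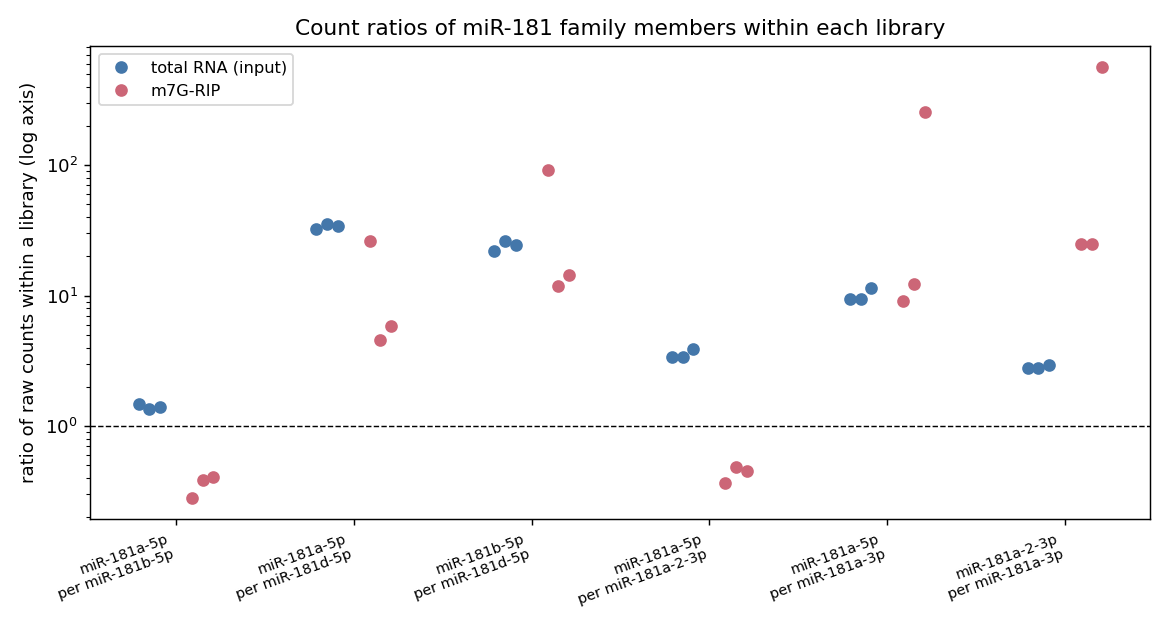
Ratio of the raw counts of the named members within each library (vertical axis, log axis), with total RNA in blue and m7G-RIP in red; the dashed line marks equal counts. The ratios of miR-181a-5p to miR-181b-5p and to miR-181a-2-3p cross from above 1 in every total RNA library to below 1 in every m7G-RIP library, while that of miR-181a-5p to miR-181a-3p overlaps between groups.

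As shares of the 5p counts, miR-181a-5p made up 58.3, 56.7 and 57.2% in total RNA and 21.9, 26.4 and 27.6% in m7G-RIP. Its mean share was 57.4 ± 0.80% in total RNA and 25.3 ± 3.00% in m7G-RIP, a change of -32.1 percentage points. The share of miR-181b-5p rose from 40.9 ± 0.95% to 70.9 ± 5.49% over the same libraries. Both contrasts gave p = 0.1 in the exact two-sided permutation test (adjusted p = 0.2 over the 4 shares), the smallest p that 3 against 3 libraries allow, so this test could not pass 0.05. For miR-181d-5p the share was 1.69 ± 0.109% in total RNA and 3.78 ± 2.595% in m7G-RIP (exact permutation p = 0.4), with 0.843% in m7G-RIP replicate 1 and 5.77 and 4.73% in the others. The share of miR-181c-5p was at most 0.122% in any library.

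**Figure D3:**
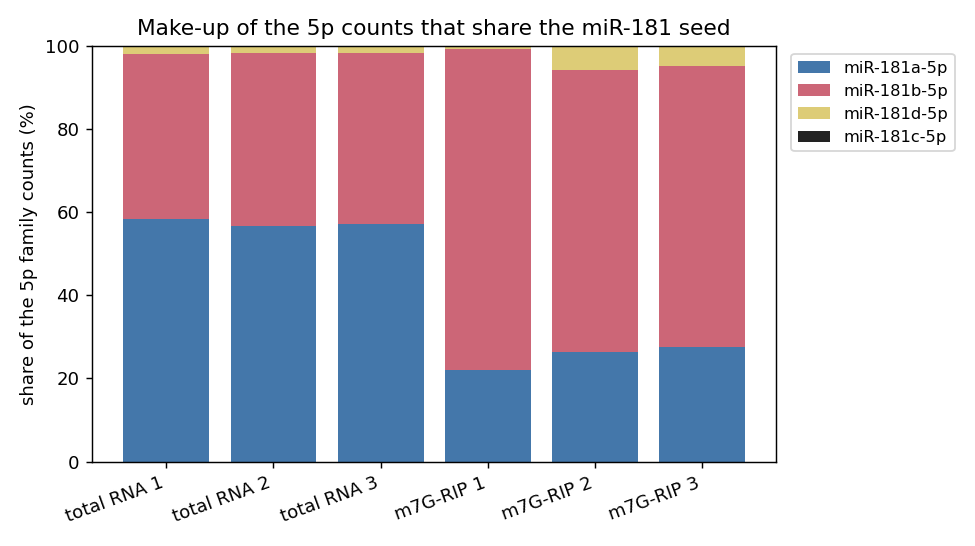
Make-up of the counts of the 4 miR-181 members that share the 5p seed in each library (vertical axis, percent of their summed counts). The share of miR-181a-5p is 56.7 to 58.3% in total RNA and 21.9 to 27.6% in m7G-RIP, and miR-181b-5p takes the largest share in every m7G-RIP library.

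Among 3p strands, miR-181a-3p and miR-181a-2-3p stood at opposite ends of the family. The chromosome 1 strand miR-181a-3p had 1477, 1212 and 1001 counts in total RNA and 37, 36 and 2 counts in m7G-RIP. All m7G-RIP libraries were low, with replicate 3 lowest, and the mean fell 19.7-fold, from 147 ± 17.8 to 7.58 ± 6.10 CPM (log2 ratio -4.30, SE 0.66, edgeR adjusted p = 0.000558). The chromosome 9 strand miR-181a-2-3p measured 462, 402 and 386 CPM in total RNA and 271, 282 and 300.3 CPM in m7G-RIP. It fell by only 1.47-fold (log2 ratio -0.55, SE 0.13, edgeR adjusted p = 0.00736) and kept its place near rank 95 (rank 98 in m7G-RIP). This small depletion rests on the scaling: with library size alone the log2 ratio was 0.0031 (edgeR adjusted p = 0.994), a scaling that moved the median of all tested miRNAs up by 0.55. Relative to that median, miR-181a-2-3p lay 0.48 lower under TMM scaling, and all 6 tested members lay below it. The same was found under each of the 4 scalings tried. A scaling shifts all log2 ratios by nearly the same amount, so this could hardly come out otherwise and adds no support.

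Within libraries, the ratio of miR-181a-2-3p to miR-181a-3p was 2.77, 2.79 and 2.93 in total RNA and 24.8, 24.9 and 561 in m7G-RIP. The total RNA libraries lay close together, and every m7G-RIP library lay far above it. The log2 ratios differed by 4.51 (SE 1.26, 95% interval 1.27 to 7.76, limma adjusted p = 0.0383), a 22.9-fold gap, in a fit over 152 pairs of the same number and arm that was added after the counts were seen and in which 48.7% of pairs differed. A larger difference was found for 2 of the 152 pairs. The 561 comes from 2 counts of miR-181a-3p in m7G-RIP replicate 3. Without that library the difference was 3.12, an 8.68-fold gap (limma adjusted p = 0.000834), and 16 of the 168 pairs then tested had a larger one. Without any 1 total RNA library the p missed the threshold (limma adjusted p = 0.0986 to 0.113), as it did with the replicate number as a block (adjusted p = 0.0749). As a share of both strands, miR-181a-2-3p was 73.9 ± 0.60% in total RNA and 97.4 ± 2.13% in m7G-RIP.

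The chromosome 19 strand miR-181c-3p had 88, 68 and 110 counts in total RNA and 16, 9 and 8 in m7G-RIP. The groups did not overlap, and its mean fell from 10.8 ± 3.28 to 3.23 ± 1.33 CPM (log2 ratio -1.74, SE 0.63, edgeR adjusted p = 0.0408). This call was close to the threshold and was lost without any 1 total RNA library (adjusted p = 0.0946 to 0.173) and under several other settings, with the direction kept. Its log2 ratio lay between those of the other 3p members, and neither pair with it passed (limma adjusted p = 0.0713 with miR-181a-2-3p and 0.0517 with miR-181a-3p).

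The arms of one hairpin are made in equal number, and their mature strands then usually differ in how many are kept. For miR-181a the ratio of the 5p strand to miR-181a-2-3p was 3.38, 3.38 and 3.91 in total RNA and 0.368, 0.489 and 0.453 in m7G-RIP. The pooled 5p strand thus had more counts than miR-181a-2-3p in every total RNA library and fewer in every m7G-RIP library. The difference of log2 ratios was -3.03 (SE 0.20, 95% interval -3.55 to -2.51, limma adjusted p = 0.000443 over 157 arm pairs), an 8.18-fold gap. Of the 157 arm pairs 42% differed, 18.5% with the 5p strand lower, the median size was 1.74 and 39 pairs differed by more. With both 3p strands of miR-181a summed, their ratio to miR-181a-5p was 0.383 ± 0.034 in total RNA and 2.39 ± 0.383 in m7G-RIP (SD, n = 3).

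By contrast, the ratio of miR-181a-5p to miR-181a-3p was 9.37, 9.44 and 11.5 in total RNA and 9.14, 12.2 and 254 in m7G-RIP. In replicates 1 and 2 of m7G-RIP it lay just below and just above the total RNA range, and replicate 3, with its 2 counts of miR-181a-3p, stood apart. The difference was 1.48 (95% interval -1.77 to 4.73, limma adjusted p = 0.387), and 0.055 without that library (adjusted p = 0.848). Summed over members, the 3p strands made up 18.3 ± 1.30% of the family counts in total RNA and 37.6 ± 1.32% in m7G-RIP, mostly through miR-181a-2-3p.

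The other 3 strands named miR-181 in the tables were scarce. The chromosome 1 strand miR-181b-3p had 70, 59 and 53 counts in total RNA and 3, 0 and 4 in m7G-RIP (log2 ratio -3.42, SE 0.97, edgeR adjusted p = 0.0165), a call lost without any 1 total RNA library (adjusted p = 0.0538 to 0.0675). Its chromosome 9 counterpart miR-181b-2-3p had 36, 64 and 13 counts in total RNA and 6, 16 and 8 in m7G-RIP, which overlapped on the CPM scale (log2 ratio -0.59, SE 0.85, edgeR adjusted p = 0.581). Neither differed from miR-181b-5p past the threshold (limma adjusted p = 0.107 and 0.237), nor from the other (0.0995). The strand miR-181d-3p had counts in m7G-RIP replicate 3 alone (11 counts). Of miRNAs outside the name, miR-4262 shares the 5p seed and had 0 counts in every library.

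Against other families, the spread of miR-181 was ordinary. Among 13 seed families with at least 3 tested members, the range of log2 ratios within the 5p family (2.38) ranked 6 from the widest, beside a median range of 2.37. Its median ratio was the fourth lowest. Of 51 miRNAs with a mean level within 2-fold of that of miR-181a-5p, those nearest to it in log2 ratio were miR-148a-3p (-3.55), miR-20a-5p (-2.92) and miR-30e-5p (-4.29), each over the same 6 libraries.

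The number of G, known for 557 of the 620 tested miRNAs (89.8%) from RefSeq sequences, was set beside the ratios. Across these miRNAs the G percent and the log2 ratio had Pearson's r of 0.41 and Spearman's rho of 0.44, as a description over miRNAs that share libraries and base composition. Tested miRNAs that hold GGG (199) had a median log2 ratio of 0.87, with 31 depleted and 76 enriched, and those without (358) a median of -0.55, with 125 depleted and 59 enriched. Of all 2370 mature sequences 33.2% hold GGG. Among members only miR-181b-5p and miR-181d-5p hold it, and they lay at -1.60 and -1.19, above miR-181a-5p at -3.57 but below the median of all 73 tested miRNAs with 7 G (-0.60), themselves included. The other tested member with 6 G, miR-181c-3p, lay at -1.74, near miR-181b-5p. Over all 64 tested miRNAs with 6 G the median was -0.36, higher than with 7 G, so the order of these members is not that of the medians. The 3p members miR-181a-3p and miR-181a-2-3p both hold 4 G and lay at -4.30 and -0.55. These values lay on either side of the median of -1.09 for all 64 tested miRNAs with 4 G. The part of the G number in these ratios was not tested. A G in the letters is a description of the sequence and says nothing of whether it was methylated.

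**Figure D4:**
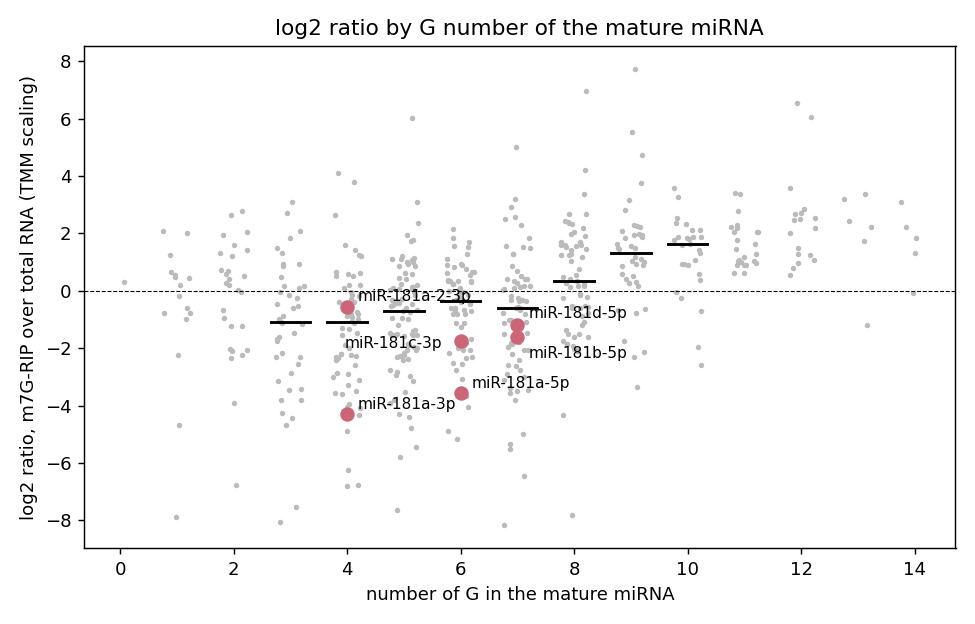
log2 ratio of m7G-RIP over total RNA (vertical axis, TMM scaling) against the number of G in the mature sequence (horizontal axis) for the 557 tested miRNAs with a RefSeq sequence (grey, spread sideways), the tested miR-181 members (red) and the median at each G number from 3 to 10 (black bars). The members with 7 G, miR-181b-5p and miR-181d-5p, lie above miR-181a-5p at -3.57 and miR-181c-3p at -1.74, both with 6 G. The strands miR-181a-3p and miR-181a-2-3p with 4 G lie at -4.30 and -0.55.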

How the data were processed

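Small RNA was sequenced from 3 total RNA and 3 m7G-RIP libraries of METTL1-knockdown A549 cells. The authors deposited raw counts per mature miRNA. According to their methods, single-end stranded reads were trimmed (Trimmomatic), placed on GRCh38 by end-to-end STAR alignment and counted with featureCounts on miRBase mature miRNAs (the submitters' processing notes name Bowtie2 instead). Tool versions and how reads with several alignments were counted are not given in the sources used here. Groups and replicate numbers came from sample titles. Replicates differed by more than sampling noise (chi-square per degree of freedom 28.4 to 151).

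The test of levels was that of edgeR 4.0.16, run in R 4.3.3 (TMM scaling, filter by group, robust quasi-likelihood test), with p-values adjusted over all 620 tested miRNAs. Fold changes of levels are those of the edgeR log2 ratios, except for miR-181c-5p, where pooled, scaled counts were used. Within-library log2 count ratios, with 0.5 added to each count, were tested with limma 3.58.1 over all seed-sharing, arm and same-name pairs, and shares with exact permutation tests. Of 2588 names, 2281 matched a RefSeq mature sequence. PCR reads carried no molecular identifiers, so counting intervals cover counting error only. The miRNAs named are the members, other entries named miR-181, miRNAs sharing a member's seed, and the 3 nearest in log2 ratio to miR-181a-5p. A few from the cell type lists are also named. Members and lists were chosen with earlier results of these data known. Alternatives were other scalings, filters, added counts and weights, DESeq2 1.42.0, limma-voom, a replicate block and the omission of single libraries.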

Additional observations from a re-analysis of the deposited data

How the results depend on the processing

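The depletion of miR-181a-5p, miR-181b-5p and miR-181a-3p, and the differences of miR-181a-5p from miR-181b-5p and from miR-181a-2-3p, kept direction and call under every alternative that gave them a value (miR-181a-3p had none with at least 10 counts in each library). The number of depleted members was 3 with library size alone and 4 to 6 when a library was left out. With library size alone the log2 ratio of miR-181a-2-3p was 0.0031, and miR-181c-3p lost its call (-1.18), as it did with library sizes without the 10 most abundant miRNAs (-1.63), without a filter (-1.98) and with the replicate block (-1.76, edgeR adjusted p = 0.120). The member miR-181d-5p was called without a filter (-1.51), with a minimum of 10 counts per library (-1.27) and by limma-voom (-1.62).

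Of 3 seed-sharing pairs, 2 were called with 2 added to each count, with the minimum of 10 counts and with weights for counting precision, and 1 to 3 when a library was left out. The difference of miR-181a-5p from miR-181d-5p was -2.01, -1.96 and -2.04 in these settings (limma adjusted p = 0.0447, 0.0338 and 0.0440), and -2.72 to -1.49 when a library was left out. For miR-181b-5p over miR-181d-5p the sign turned with 2 added (-0.036), with weights (-0.080), without total RNA replicate 1 (-0.046) and without m7G-RIP replicate 1 (-0.90), within a range of -0.90 to 0.56. Arm pairs called were 1 to 2 when a library was left out, and miR-181b-5p over miR-181b-3p was 1.10 to 2.62, called without m7G-RIP replicate 2 alone (limma adjusted p = 0.0166).

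Of 3 pairs of 3p members, 2 were called with 2 added and with weights, 0 with the replicate block and 0 to 2 when a library was left out. The difference of miR-181a-2-3p from miR-181a-3p was 4.51 with the block (limma adjusted p = 0.0749) and 3.12 to 5.21 when a library was left out. For miR-181a-3p over miR-181c-3p it was -3.25 with 2 added, -2.93 with weights and -4.09 to -2.23 when a library was left out, and for miR-181a-2-3p over miR-181c-3p 0.88 to 1.51. No pair of 3p members had 10 counts in every library. With the replicate block, 4 members were depleted, and miR-181a-5p (-3.58), miR-181b-5p (-1.60), miR-181a-5p over miR-181b-5p (-1.98, limma adjusted p = 0.0136) and miR-181a-5p over miR-181a-2-3p (-3.03, adjusted p = 0.00785) kept their calls. The main tests were set by group, without pairing by number. Deviations of same-numbered libraries had correlations of -0.048, -0.088 and 0.079. Counting noise lowers such correlations, so they cannot tell whether the libraries were paired. In m7G-RIP, miR-181c-5p had at most 1 count and miR-181c-3p at most 16 counts in a library, while miR-181d-5p and miR-181a-3p each had 1 library far below the others. Where a call moved the cause was not tested.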
